A study of Mus musculus with 4 samples.

Results

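Astrocytes wrap blood vessels with endfeet, whose membrane holds water channels, potassium channels and gap junctions that are tethered to the basement membrane. The data described here are the transcript levels of 9 genes of that structure in cultured mouse astrocytes lacking or carrying Npas3, which encodes a transcription factor of the bHLH-PAS family. The genes are the adhesion and channel set Hepacam, Mlc1 and Clcn2, the channels Aqp4 and Kcnj10, the connexins Gja1 and Gjb6, and the dystroglycan partners Dag1 and Dtna. They were chosen by symbol and are 9 of the 53379 genes in the count table. All 9 had a count in at least 1 library, and 8 of them were among the 18838 genes tested. Each of those 8 had over 1000 counts in every library, so none entered the test through 1 genotype alone, and the remaining gene, Gjb6, was too low to test.

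RNA was sequenced from 2 Npas3-/- and 2 wild-type samples of C57BL/6 cortical astrocytes at day 14 in vitro. Both genotypes came from newborn cortex dissociated with papain, were grown in serum-containing medium, were shaken daily to remove other cells and were replated. The labels name no Npas3 allele and no Cre driver. They also do not name the animal or culture behind each replicate, so a p-value here reflects only how much these samples vary, and that variation may be technical. The cells grew in flasks, with no vessels for endfeet to form on, and what was measured is transcript abundance in the culture, not protein or its position at the membrane.

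At an endfoot, the immunoglobulin-type adhesion protein encoded by Hepacam brings the membrane protein Mlc1 and the chloride channel encoded by Clcn2 to contacts between astrocytes. In humans, defects of HEPACAM or MLC1 cause a leukodystrophy with swollen white matter. Dystroglycan, the product of Dag1, binds laminin and agrin outside the cell. Inside it is joined to a complex of dystrophin, dystrobrevins and syntrophins that holds the water channel Aqp4, and the potassium channel Kcnj10 lies in the same membrane domain.

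The libraries held between 82965565 and 86932708 counts, and levels are given in CPM, the count relative to the TMM-scaled library total. Npas3 itself had 2055 and 1386 counts in the Npas3-/- libraries, against 5129 and 8739 in the wild-type libraries. Its log2 fold change was -1.82 (SE 0.33; adjusted p = 0.0181), by the quasi-likelihood (QL) test of edgeR with Benjamini-Hochberg adjustment, which is the edgeR QL test named throughout. Its counts cover the whole gene and do not show whether any exons are lost, and 1.38% of its exon bases overlap a gene on the other strand. Over all tested genes 33.1% passed an adjusted p of 0.05, 11.6% being higher and 21.5% lower in Npas3-/-. The fold changes followed transcript composition, with a Spearman's rho of 0.730 with GC content over 14356 genes, a description across genes that are not independent. Test results of the members are therefore also given from a fit with a correction for GC content and transcript length. Levels, their order, ratios between genes and sums carry no such correction. In the corrected fit 8.37% of genes changed, 4.56% higher and 3.81% lower. In that fit Npas3 stood at -0.65 (SE = 0.21, edgeR QL adjusted p = 0.111) and did not pass. The 8 tested endfoot genes had over 1000 counts in every library, while some genes of the related lists had few.

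Among the 8 tested endfoot genes 5 fell and 2 rose in Npas3-/- astrocytes, beside 21.5% and 11.6% of all tested genes. Their median log2 fold change was -2.22, beside -0.070 over all tested genes. Hepacam, Aqp4, Kcnj10, Gja1 and Dtna were the 5 that fell, to between 6.21% and 22.6% of the wild-type mean. Mlc1 and Clcn2 rose, and Dag1 did not pass the test. With the GC and length correction the same 5 fell and none rose by the edgeR QL test, although 1 member was higher at an unadjusted p below 0.05, and the median was -1.01. In these bulk cultures, fewer cells that express a gene and less of its RNA per cell cannot be told apart. Without Npas3-/- replicate 2 no member passed and no gene of the whole table did, where the edgeR QL test gave 5 lower members and 1 higher member, and 5728 genes in all, at an unadjusted p below 0.05. Without Npas3-/- replicate 1 the 5 falls passed and no rise did, 1 member being higher at an unadjusted p below 0.05 in the same edgeR test, and without either wild-type replicate 5 fell and 1 rose. In the corrected fit no member passed when either Npas3-/- replicate was left out, while all 5 falls had an unadjusted p below 0.05 there, and 4 fell when either wild-type replicate was.

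**Figure D1:**
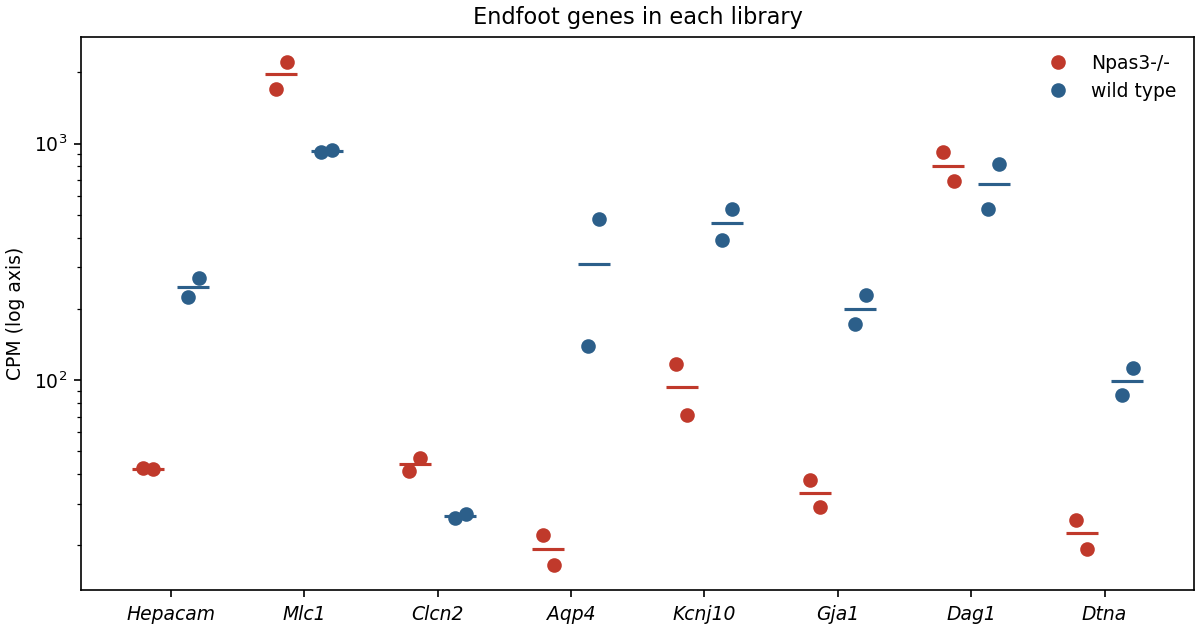
CPM on a log axis for the 8 tested endfoot genes, with 1 point per library (Npas3-/- red, wild type blue) and a bar at the mean of 2. The genotypes are separate for every gene except Dag1, whose Npas3-/- values of 917 and 691 CPM overlap the wild-type values of 528 and 821 CPM. They are also separate for 75.8% of all tested genes. Gjb6, at 0 in both Npas3-/- libraries, is not drawn.

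Hepacam fell and its partner Mlc1 rose before the correction, and with it only Hepacam passed. Hepacam (ENSMUSG00000046240.8, mm10 chromosome 9, 37367351 to 37386575, plus strand) had 42.2 and 42.1 CPM in the Npas3-/- libraries, against 224 and 269 CPM in the wild-type libraries. Both Npas3-/- libraries lay far below both wild-type libraries, and within Npas3-/- the values were nearly equal. The mean fell to 42.2 ± 0.111 CPM in Npas3-/-, against 247 ± 31.5 CPM in wild type (SD, n = 2 each), and its log2 fold change was -2.55 (SE = 0.21, edgeR QL adjusted p = 0.0130). The Hepacam transcript has a GC content of 53.3%, and the 1546 genes between 52% and 54% GC had a median fold change of 0.47 (log2), with quartiles at -0.017 and 0.86. With the GC and length correction its log2 fold change was -2.87 (SE = 0.20, edgeR QL adjusted p = 0.0231). Hepacam thus fell in both fits, and it was the only one of the 5 falling genes whose estimate was larger with the correction.

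Mlc1 (ENSMUSG00000035805.13, mm10 chromosome 15, 88955884 to 88979007, minus strand) encodes a membrane protein that depends on Hepacam for its place at astrocyte contacts. It had 1703 and 2214 CPM in the Npas3-/- libraries, against 919 and 943 CPM in the wild-type libraries, and was the most abundant endfoot transcript per kb in all 4. The mean was 1959 ± 361 CPM in Npas3-/- and 931 ± 17 CPM in wild type (SD, n = 2 each), and its log2 fold change was 1.07 (SE = 0.24, edgeR QL adjusted p = 0.0268). The genotypes did not overlap, which was also so for 75.8% of all tested genes. Genes of similar composition, the 1522 between 50% and 52% GC, had a median of 0.22. With the correction the log2 fold change of Mlc1 was 0.79 (95% interval 0.33 to 1.24; adjusted p = 0.0559, edgeR QL test), which did not pass.

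Clcn2 (ENSMUSG00000022843.16, mm10 chromosome 16, 20702964 to 20717746, minus strand) encodes the chloride channel of the set. It had 41.2 and 46.8 CPM in the Npas3-/- libraries, against 26.0 and 27.0 CPM in the wild-type libraries. Its log2 fold change was 0.73 (SE = 0.21, edgeR QL adjusted p = 0.0489), at the edge of the threshold, and the call was lost in 14 of 19 alternative settings. With the correction it was 0.14 (95% interval -0.31 to 0.58; adjusted p = 0.669, edgeR QL test), and the transcript has a GC content of 56.8%, in a band of 2175 genes whose median was 0.78. Clcn2 overlaps exons of Fam131a and Polr2h on the other strand over 2.77% of its exon bases, and reads there are uncertain because no source used here states the strand setting of the counting.

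The balance within the set differed between genotypes. Per kb of transcript, Hepacam reached 2.07% and 1.59% of the Mlc1 level in the Npas3-/- libraries, against 20.4% and 23.9% in the wild-type libraries. This ratio does not depend on library scaling, and it was 12.2-fold lower in Npas3-/-, a log2 difference of -3.60. It is not corrected for GC content, and neither are the other ratios here. In the corrected fit the log2 fold changes were -2.87 for Hepacam and 0.79 for Mlc1. Both Npas3-/- libraries lay below both wild-type libraries, which follows from Hepacam being lower and Mlc1 higher in each of them. An exact two-sided permutation test gave p = 0.333, the smallest that 2 against 2 samples allow, so it cannot decide whether the ratio differs. Hepacam stood at 95.9% and 84.1% of the Clcn2 level per kb in Npas3-/-, against 807% and 931% in wild type. Mlc1 and Clcn2 kept a closer ratio, Mlc1 having 4620% and 5288% of the Clcn2 level per kb in Npas3-/- and 3951% and 3903% in wild type. A ratio's size depends on the transcript length used, while its fold between genotypes does not: over the union of exons Hepacam stood at 185% and 162% of Clcn2 in Npas3-/-, against 1554% and 1793% in wild type.

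**Figure D2:**
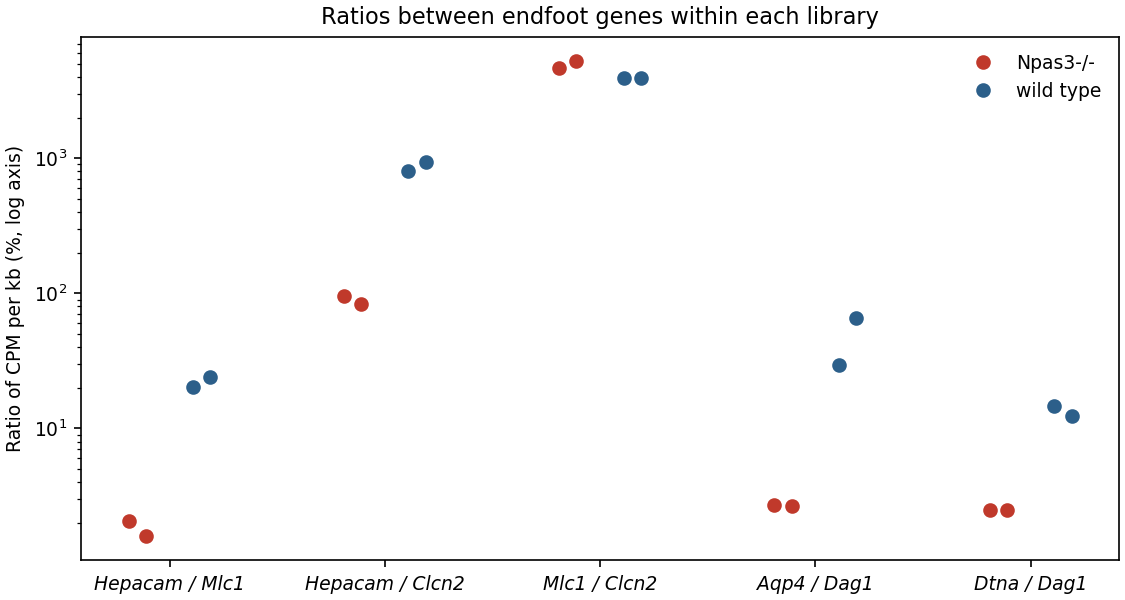
Ratios of CPM per kb of transcript between pairs of endfoot genes within each library, in percent on a log axis (Npas3-/- red, wild type blue, 1 point per library). The ratios are without the GC and length correction. Hepacam relative to Mlc1 is 2.07% and 1.59% in Npas3-/-, against 20.4% and 23.9% in wild type, while Mlc1 relative to Clcn2 is 4620% and 5288% in Npas3-/-, against 3951% and 3903% in wild type.

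The channels that carry water and potassium at the endfoot both fell. Aqp4 (ENSMUSG00000024411.9, mm10 chromosome 18, 15389496 to 15410982, minus strand), the main water channel of brain astrocytes, had 22.1 and 16.5 CPM in the Npas3-/- libraries, against 139 and 482 CPM in the wild-type libraries. The 2 wild-type libraries differed widely from each other, yet both were above both Npas3-/- libraries. The mean was 19.3 ± 3.97 CPM in Npas3-/- and 311 ± 242 CPM in wild type (SD, n = 2 each), and its log2 fold change was -4.01 (SE = 0.64, edgeR QL adjusted p = 0.0156). Without wild-type replicate 2 it was -2.87. Aqp4 has the lowest GC content of the endfoot genes, 41.4%, and the 1850 genes between 40% and 44% GC had a median of -2.19. With the correction the log2 fold change was -1.57 (SE = 0.30, edgeR QL adjusted p = 0.0381), and -1.09 when wild-type replicate 2 was also left out.

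Kcnj10 (ENSMUSG00000044708.5, mm10 chromosome 1, 172341210 to 172374085, plus strand) encodes the inward rectifier potassium channel with which astrocytes take up potassium. It had 117 and 70.7 CPM in the Npas3-/- libraries, against 390.1 and 528 CPM in the wild-type libraries. The genotypes did not overlap, as for 75.8% of all tested genes. The log2 fold change was -2.29 (SE = 0.33, edgeR QL adjusted p = 0.0135), and -1.76 (SE = 0.22, edgeR QL adjusted p = 0.0233) with the correction. Its transcript has a GC content of 49.6%, and the 1558 genes between 48% and 50% GC had a median of -0.19. Hepacam and then Kcnj10 lie farthest below the median of genes of their own composition among the falling members before the correction.

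**Figure D3:**
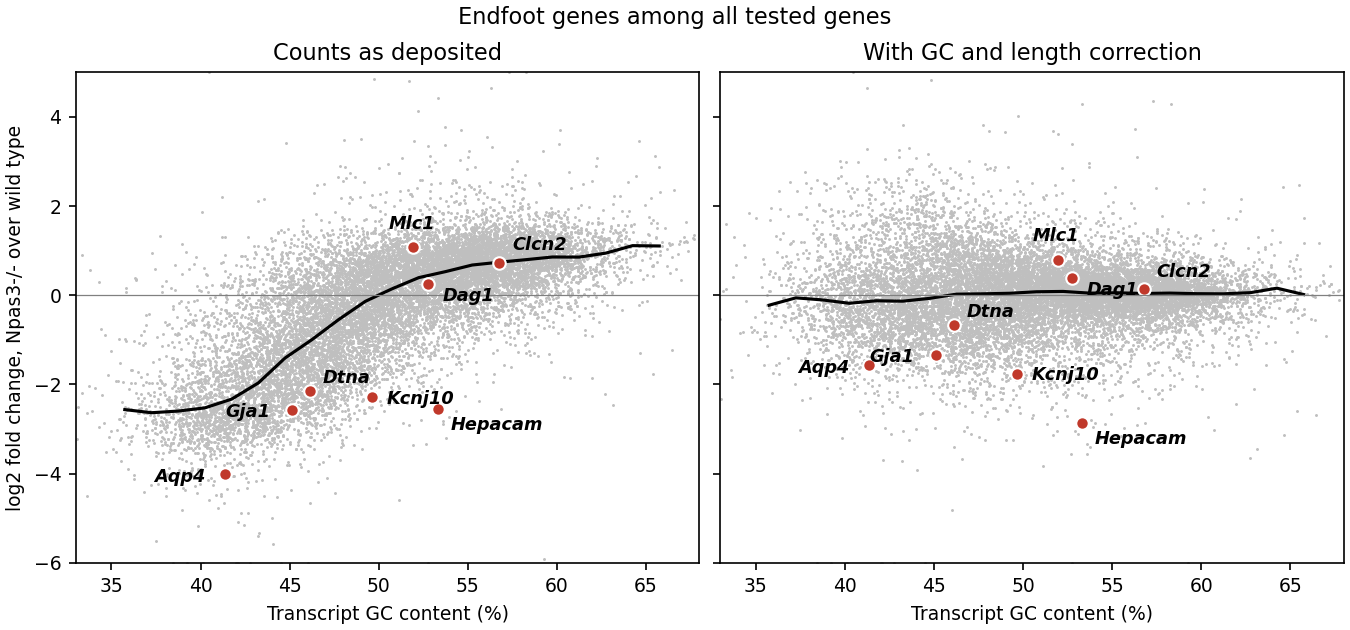
Log2 fold change of Npas3-/- over wild type against transcript GC content in percent, from the deposited counts (left) and with the GC and length correction (right). Grey points are tested genes with at least 1 CPM on average, the black line is their median in bins of GC content, and red points are the endfoot genes; Hepacam, at -2.55 and -2.87, lies far below the line in both panels, and Clcn2 lies near it.

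Of the astrocyte connexins, whose channels join neighbouring cells, Gja1 fell and Gjb6 was barely present. Gja1 (ENSMUSG00000050953.10, mm10 chromosome 10, 56377330 to 56402513, plus strand) had 37.8 and 29.0 CPM in the Npas3-/- libraries, against 172 and 228 CPM in the wild-type libraries. The log2 fold change was -2.58 (SE = 0.26, edgeR QL adjusted p = 0.0130), and -1.35 (SE = 0.16, edgeR QL adjusted p = 0.0233) with the correction, at a transcript GC content of 45.1%. Gjb6 (ENSMUSG00000040055.9, mm10 chromosome 14, 57123303 to 57133611, minus strand), the second astrocyte connexin of the adult brain, had 0 counts in both Npas3-/- libraries, against 5 and 13 counts in the wild-type libraries. Its wild-type mean was 2.60-fold above a floor of 3 counts per Npas3-/- library. That mean rests on 5 and 13 counts, whose counting error is not included, and the difference was not tested. Per kb, Gja1 stood above Gjc1, another connexin gene, in all 4 libraries, at 304% and 217% of its level in Npas3-/-, against 1529% and 2786% in wild type, and over the union of exons at 204% and 145% in Npas3-/-, against 1026% and 1869% in wild type.

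The bases upstream of Gja1 and Kcnj10 are shown because both genes fell in both fits and both windows end upstream of the RefSeq start and of the GENCODE gene. Promoter sequences of RefSeq (GRCm38.p6) were found for 7 of the 9 genes. The 250 bases before the RefSeq start are given 5′ to 3′ on the plus strand, chr10:56377050-56377299 for Gja1 and chr1:172340960-172341209 for Kcnj10, with motif matches in capitals.
Gja1: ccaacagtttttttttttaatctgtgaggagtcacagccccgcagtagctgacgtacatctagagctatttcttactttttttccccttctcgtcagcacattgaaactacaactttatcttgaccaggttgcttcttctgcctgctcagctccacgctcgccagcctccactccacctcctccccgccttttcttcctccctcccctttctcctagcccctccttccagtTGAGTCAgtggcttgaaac
Kcnj10: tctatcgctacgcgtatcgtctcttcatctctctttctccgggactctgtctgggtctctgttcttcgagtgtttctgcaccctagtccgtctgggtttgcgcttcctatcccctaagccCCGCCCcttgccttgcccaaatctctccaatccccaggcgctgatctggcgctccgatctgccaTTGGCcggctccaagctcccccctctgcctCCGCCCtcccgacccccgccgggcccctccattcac

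Motifs were searched on both strands and did not overlap each other in these windows. ACGTG, the core bound by several bHLH-PAS dimers, had no match in either window and was present in 16.6% of 32851 windows of the same length. TTGGC, a nuclear factor I motif core, began 66 bases before the Kcnj10 start, with no match for Gja1, and was present in 41.5% of windows. TGANTCA, the AP-1 motif, began 19 bases before the Gja1 start and was present in 6.75% of windows, and GGGCGG, the GC box, began 130 and 36 bases before the Kcnj10 start (as CCGCCC on the printed strand) and was present in 32.7%. The last 2 motifs were added after the sequences were seen. The Kcnj10 window has a GC content of 62.0% and that of Gja1 lies below the median over all windows, 52.4%.

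The dystroglycan partners separated as well. Dag1 (ENSMUSG00000039952.15, mm10 chromosome 9, 108204634 to 108263958, minus strand), the membrane receptor for laminin, had 917 and 691 CPM in the Npas3-/- libraries, against 528 and 821 CPM in the wild-type libraries, and the genotypes overlapped. Its log2 fold change was 0.25 (95% interval -0.50 to 1.00; adjusted p = 0.541, edgeR QL test), and 0.39 (95% interval -0.21 to 0.98; adjusted p = 0.346, the same test) with the correction. The intervals exclude a fall of the size seen for any of the 5 falling members in the same fit, and reach upward to a log2 fold change of 1.00. Dtna (ENSMUSG00000024302.16, mm10 chromosome 18, 23415135 to 23659715, plus strand), which encodes a dystrobrevin on the inner side of the complex and shares 0.532% of its exon bases with a gene on the other strand, had 25.6 and 19.3 CPM in the Npas3-/- libraries, against 86.6 and 112 CPM in the wild-type libraries. Its log2 fold change was -2.15 (SE = 0.26, edgeR QL adjusted p = 0.0130). With the correction it was -0.67 (SE = 0.15, edgeR QL adjusted p = 0.0488), just inside the threshold, and it did not pass there once either wild-type replicate was left out (adjusted p = 0.0665 without replicate 1 and 0.120 without replicate 2, the same edgeR test). The transcript has a GC content of 46.1%, and the 2806 genes between 44% and 48% GC had a median of -1.05. Per kb, Dtna reached 2.51% of the Dag1 level in both Npas3-/- libraries, against 14.7% and 12.3% in the wild-type libraries, and over the union of exons 1.05% in both Npas3-/- libraries, against 6.16% and 5.13% in the wild-type libraries. Aqp4 reached 2.70% and 2.67% of the Dag1 level per kb in Npas3-/-, against 29.6% and 65.7% in wild type. These ratios to Dag1 are not corrected for GC content. Genes in the GC band of Aqp4 had a median log2 fold change of -2.19, and those in the band of Dag1 0.47. With the correction the log2 fold change of Aqp4 was -1.57, beside 0.39 for Dag1 and -0.67 for Dtna.

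**Figure D4:**
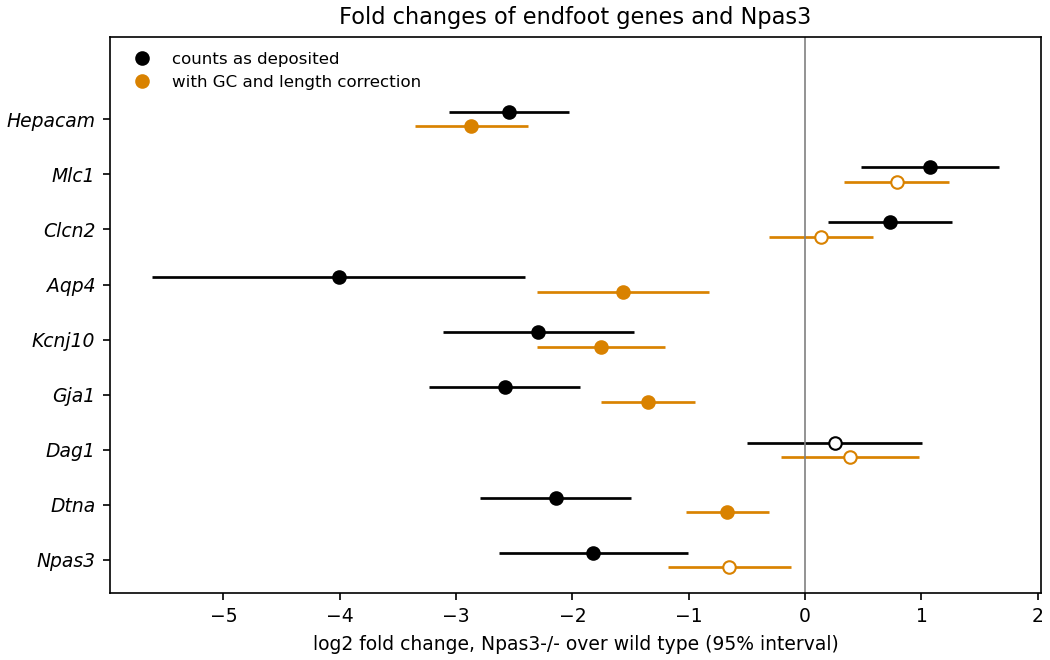
Log2 fold change of Npas3-/- over wild type with its 95% interval for the 8 tested endfoot genes and Npas3, from the deposited counts (black) and with the GC and length correction (orange). Filled points passed an adjusted p of 0.05 and open points did not; Hepacam, Aqp4, Kcnj10, Gja1 and Dtna are filled on the lower side in both fits, and Mlc1 and Clcn2 are open with the correction.

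The order of the levels, taken without the correction, also differed between genotypes. Per kb of the longest coding transcript, Mlc1 led in Npas3-/- with 699 ± 129 CPM per kb, followed by Dag1 (142 ± 28.2), Kcnj10 (17.3 ± 6.01), Clcn2 (14.1 ± 1.26), Hepacam (12.6 ± 0.0332), Gja1 (10.5 ± 1.97), Aqp4 (3.82 ± 0.785) and Dtna (3.57 ± 0.709) (SD, n = 2). The ranges of Kcnj10 and Clcn2 overlapped, as did those of Aqp4 and Dtna. In wild type Mlc1 led with 332 ± 6.06 CPM per kb, followed by Dag1 (119 ± 36.6), Kcnj10 (84.9 ± 18.0), Hepacam (73.7 ± 9.41), Gja1 (62.9 ± 12.3), Aqp4 (61.4 ± 47.9), Dtna (15.8 ± 2.87) and Clcn2 (8.46 ± 0.227). There the ranges of neighbours overlapped from Dag1 down to Aqp4. Clcn2 thus stood above Hepacam in Npas3-/- and last of these 8 in wild type. Over the union of exons in place of the longest coding transcript, Clcn2, Gja1 and Dtna were lower per kb and the other levels moved less than their spread, and there Clcn2 stood below Hepacam in Npas3-/- too, with 7.30 against 12.6 CPM per kb. On that length Gja1 had 3.26 CPM per kb in Npas3-/- and 19.5 CPM per kb in wild type, and Dtna 1.33 CPM per kb in Npas3-/- and 5.87 CPM per kb in wild type, so that Aqp4, with 49.8 CPM per kb, stood above Gja1 in wild type.

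Of the dystrophin-complex genes other than Dtna, 11 were tested, of which 1 rose and 4 fell before the correction. Their median log2 fold change was -0.82. Over all tested genes 11.6% were higher and 21.5% lower before the correction, and 4.56% and 3.81% with it. These shares stand beside the counts of this list and of the lists below. Dmd, the gene of dystrophin, fell to 16.8 ± 2.52 CPM in Npas3-/-, against 101 ± 39.9 CPM in wild type, and its relative Utrn to 28.2 ± 15.4 CPM, against 142 ± 28.0 CPM. The sarcoglycan gene Sgcb fell to 41.1 ± 1.61 CPM in Npas3-/-, against 99.6 ± 18.5 CPM in wild type. Sntb1, a syntrophin gene, was the fourth to fall. With the correction 2 rose, Dtnb (1.75) and Sspn (1.51), which had stood at 0.50 and 0.23 without it, and 1 fell, with a median of 0.42. Utrn (-1.05) passed there, while Dmd (0.30), Sgcb (0.38) and Sntb1 (-0.99) did not. Sntb1, Dtnb and Sspn were picked out after their values were seen, as were Lamb2, Lama4, B4gat1, Pomk, Rxylt1, Dpm1, Panx1, Gjb2 and Kcnk10 below, which make up counts given here.

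Of 11 genes of dystroglycan ligands 2 were higher and 3 lower, beside 11.6% higher and 21.5% lower over all tested genes. Their median was 0.074 on the log2 scale. Agrn, the gene of the heparan sulfate proteoglycan agrin, rose to 1090 ± 41.9 CPM in Npas3-/-, against 606 ± 12.2 CPM in wild type. The laminin chain gene Lama2 fell to 15.4 ± 3.88 CPM, against 48.6 ± 4.62 CPM in wild type, and the guidance gene Slit2 to 30.5 ± 4.67 CPM, against 84.6 ± 24.3 CPM. The laminin chain gene Lamb2 (0.72) was the other to rise. With the correction 2 rose, Agrn and Lama4 (1.08), and, by the edgeR QL test, none fell, nor did any at an unadjusted p below 0.05. Agrn passed there at 0.85 (adjusted p = 0.0309, edgeR QL test), and Lama2 (-0.39) and Slit2 (0.34) did not. Of 14 genes that build the sugar chains of dystroglycan 2 rose and 2 fell, a share near that of all tested genes, with a median of 0.54. DESeq2 called 6 higher and 3 lower, and in the edgeR QL test 5 were higher and 3 lower at an unadjusted p below 0.05. B3galnt2 fell to 4.25 ± 0.00150 CPM in Npas3-/-, against 10.6 ± 0.311 CPM in wild type, while Pomgnt1 rose to 157 ± 7.36 CPM, against 86.4 ± 18.0 CPM, and B4gat1 was the other to rise, although 85.3% of its exon bases overlap another gene (9.20% for B3galnt2 and 11.7% for Pomgnt1). These 3 missed the threshold with the correction, where 3 of the 14 rose (Pomk, Rxylt1 and Dpm1, at 0.86, 1.70 and 2.36) and none fell, with 1 lower at an unadjusted p below 0.05 in the edgeR QL test.

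Beside Gja1 and Gjb6, the other connexin and pannexin genes were sparse. Of 21, 11 were tested, and none passed the edgeR QL test, where 3 were higher and 0 lower at an unadjusted p below 0.05, while DESeq2 called 2 higher and limma-voom none. Their summed level was 44.4 and 47.0 CPM in the Npas3-/- libraries, against 31.8 and 31.0 CPM in the wild-type libraries. Gja4, a connexin gene known from vessels, stood at 1.98 ± 0.483 CPM in Npas3-/-, against 0.468 ± 0.421 CPM in wild type. Gjb2, whose connexin is also known from astrocytes, had 0 counts in both Npas3-/- libraries, against 11 and 9 in the wild-type libraries. In the corrected fit 1 of the 11 rose, Panx1 (1.08), a pannexin gene.

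Among 7 junction scaffold genes none rose and 3 fell by the edgeR QL test, beside 11.6% higher and 21.5% lower over all tested genes. Of the 7, 1 was higher at an unadjusted p below 0.05 in that test and 1 was called higher by DESeq2. Their median was -0.72 on the log2 scale. Tjp1, whose product binds the tail of the Gja1 connexin, fell to 44 ± 21.3 CPM in Npas3-/-, against 254 ± 83.3 CPM in wild type, and passed with the correction too (log2 fold change -1.20, adjusted p = 0.0469, edgeR QL test). The cadherin gene Cdh2 fell to 443 ± 76.9 CPM, against 789 ± 59.8 CPM in wild type, and the caveolin gene Cav2 to 11.2 ± 1.92 CPM, against 62.1 ± 42.1 CPM, and neither passed with the correction. Of 12 genes of membrane proteins associated with Hepacam and Mlc1, none rose by the edgeR QL test, with 1 higher at an unadjusted p below 0.05 and 1 called by DESeq2, and 3 fell, with a median of -0.44. The chloride transporter gene Clcn3 fell to 20.8 ± 4.89 CPM in Npas3-/-, against 99.8 ± 29.8 CPM in wild type. Lrrc8b and Lrrc8c, genes of volume-regulated anion channel subunits, fell to 9.94 ± 2.38 CPM, against 58.4 ± 23.8 CPM in wild type, and to 81.6 ± 17 CPM, against 146 ± 21.2 CPM in wild type. With the correction 2 rose and none fell by the same edgeR test, with 2 lower at an unadjusted p below 0.05. Lrrc8c changed sign there and was called higher (log2 fold change 0.81, adjusted p = 0.0316, edgeR QL test), and Clcn3 stood at 0.13.

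The other aquaporins were low in both genotypes. The 10 genes summed to 10.7 and 12.2 CPM in the Npas3-/- libraries, against 10.7 and 9.80 CPM in the wild-type libraries. Of 6 tested 1 rose, Aqp5, a channel known from secretory glands, to 3.44 ± 0.638 CPM in Npas3-/-, against 0.595 ± 0.177 CPM in wild type, and it did not pass with the correction. Aqp2 and Aqp9 did not pass, at 0.262 ± 0.0395 and 1.44 ± 0.50 CPM in Npas3-/-, against 0.0225 ± 0.0319 and 2.40 ± 0.252 CPM in wild type. Of 7 tested glial potassium channels other than Kcnj10, 1 rose and 2 fell, beside 11.6% higher and 21.5% lower over all tested genes. Their median was -0.14, and 0.86 with the correction. The inward rectifier gene Kcnj2 fell to 0.896 ± 0.423 CPM in Npas3-/-, against 5.97 ± 0.990 CPM in wild type, and the leak channel gene Kcnk2 to 16.5 ± 0.679 CPM, against 29.6 ± 3.14 CPM, while Kcnj12 rose to 5.60 ± 0.560 CPM, against 1.49 ± 0.730 CPM. Kcnj16, whose product forms channels together with that of Kcnj10, had 1.36 ± 0.0792 CPM in Npas3-/- and 2.33 ± 1.40 CPM in wild type and did not pass. Kcnk2 passed with the correction at -0.86 (adjusted p = 0.0475, edgeR QL test), though 12.2% of its exon bases overlap another gene, and there 1 of the 7 rose (Kcnk10, at 1.34) and 1 fell.

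**Figure D5:**
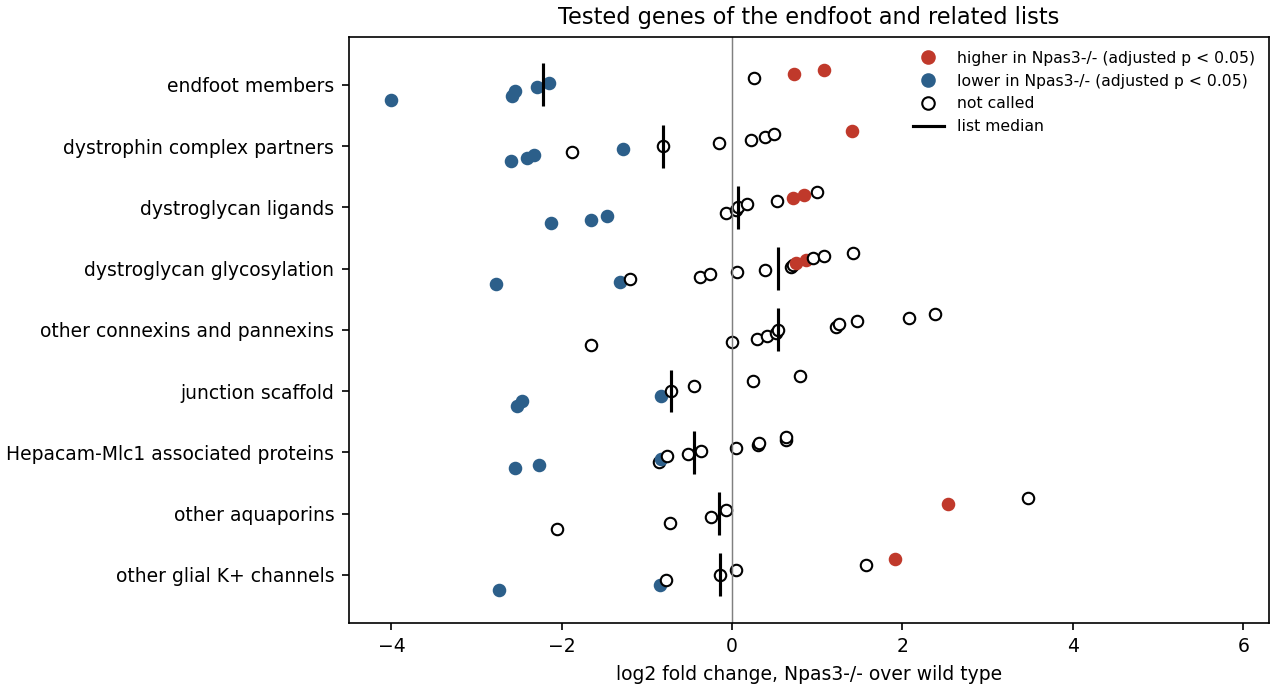
Log2 fold change of Npas3-/- over wild type for each tested gene of the endfoot set and of the 8 related lists, from the deposited counts (red higher, blue lower, open not called; bars mark list medians). The endfoot set has a median of -2.22 with 5 lower and 2 higher genes, and the other connexins and pannexins have none called.

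Transcripts of astrocytes and of several other cell types were measured. Of 11 astrocyte markers 3 rose and 2 fell, beside 11.6% higher and 21.5% lower over all tested genes. Their summed level was 7079 and 7271 CPM in the Npas3-/- libraries, against 4040 and 4982 CPM in the wild-type libraries. Glul was the most abundant, and S100b stood under 1 CPM in both genotypes. Gfap, the intermediate filament gene of astrocytes, rose to 1885 ± 20.5 CPM in Npas3-/-, against 634 ± 30.0 CPM in wild type, as did Aldoc and Glul, while the glutamate transporter gene Slc1a2 fell to 32.7 ± 1.71 CPM, against 183 ± 108 CPM in wild type, as did Slc4a4. With the correction the same 3 rose and, by the edgeR QL test, none fell, with 1 lower at an unadjusted p below 0.05. The defining oligodendrocyte gene Mog was at 0 in all libraries, though Olig1 and the rest of that list summed to 1428 and 1743 CPM in Npas3-/-, against 1381 and 1274 CPM in wild type. Microglia and macrophage markers summed to 4.70 and 4.91 CPM in Npas3-/- and 3.14 and 2.19 CPM in wild type, and endothelial markers to 20.4 and 15 CPM in Npas3-/- and 16.5 and 14.7 CPM in wild type. Neuronal markers, led by Stmn2, summed to 197 and 198 CPM in Npas3-/- and to 272 and 121 CPM in wild type. Mural markers, led by Acta2, summed to 1927 and 2092 CPM in Npas3-/-, against 1771 and 414 CPM in wild type. That sum was carried by Acta2 and Tagln, both lowest in wild-type replicate 2. Other mural markers did not follow it, since Rgs5 had 32 and 24 counts in Npas3-/-, against 339 and 1073 in wild type, and Abcc9 had 4 and 0 counts in Npas3-/-, against 8 and 203 in wild type, both highest in wild-type replicate 2, as Aqp4 was. Meningeal fibroblast markers, led by Col1a2, summed to 265 and 324 CPM in Npas3-/-, against 367 and 312 CPM in wild type, and ependymal and choroid plexus markers, led by Foxj1 and with Tmem212 at 0 in all libraries, to 485 and 615 CPM, against 350.1 and 248 CPM. Among the lists other than astrocytes none rose by the edgeR QL test, where 1 neuronal and 1 ependymal marker were higher at an unadjusted p below 0.05 and by DESeq2. In that test 1 oligodendrocyte marker fell, and Syt1 of the neuronal list, Tek of the endothelial list, Rgs5 of the mural list and Col3a1 and Dcn of the fibroblast list fell too. With the correction Rgs5 (-2.18) and Col3a1 (-1.76) passed, as did Olig2 of the oligodendrocyte list (-0.70), and Syt1, Tek and Dcn did not. Apart from the most abundant of each list, the markers named here were picked out after their values were seen. The part of these cell types in the endfoot results was not tested.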

How the data were processed

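RNA-seq libraries were made from total RNA of 4 astrocyte samples. The authors deposited raw counts per gene in 1 table. The tools were HISAT2 2.1.0, Trimmomatic 0.3.8 and featureCounts on build mm10, per the submitters' processing notes. For the annotation release and the strand setting, the sources used here give nothing. Columns were matched to samples by name and title. Symbols, coordinates, lengths and GC content came from GENCODE M21, in which 53274 of 53379 identifiers were found.

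Genes were tested with edgeR 4.0.16 in R 4.3.3 (quasi-likelihood fit, glmQLFTest) with TMM scaling and filterByExpr at a minimum count of 10, over all 4 samples with no covariate and 2 residual degrees of freedom. P-values were adjusted by Benjamini-Hochberg over all tested genes with a threshold of 0.05. The SE is the log2 fold change over the square root of F. The correction fitted, per library, natural splines with 6 degrees of freedom in GC content and log2 length to deviations of log2 CPM (pseudocount 2) over genes with at least 1 CPM, entered as an offset; it also removes true differences that follow composition. Other settings used DESeq2 1.42.0 and limma-voom 3.58.1. Total-count scaling moved the median of all genes to a log2 fold change of -0.30. The functions were tested on simulated data.

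Named genes are Npas3, the 9 members and the 3 tested genes with the smallest p in each related list; some of these are not reported here. Members and lists were chosen with earlier results of these data known. A floor of 3 counts per library was used only for the fold of Gjb6, and counts of 0 stayed at 0 in all levels and sums.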

Additional observations from a re-analysis of the deposited data

How the results depend on the processing

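Over 19 alternatives, 152 values of single members gave 100 with the same direction and call, 50 with the call lost and 2 with the other sign, and 467 values of other named genes gave 271, 160 and 30, with 6 gaining a call. The 5 members called lower numbered 5 under size factors of the RLE type, no filter, a filter of 5 CPM, DESeq2, limma-voom, library totals and the GC and length correction. At an adjusted p below 0.01 the counts were 0 genes, 0 members higher and 0 lower, while the edgeR QL test had 9024 genes with an unadjusted p under 0.05 and a smallest adjusted p of 0.0130. No filter gave 3997 genes and 1 member higher, library totals (added after the data were seen) 1 member higher, and the GC and length correction 1576 genes and 0 members higher. Of 16 counts of calls in the related lists, 10 moved by over 1.5 times with the correction, 6 with the replicate block, 4 with DESeq2, 4 with no filter and 3 with the filter of 5 CPM.

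Same-numbered samples deviated with a correlation of -0.156 across genes that are not independent. With 2 samples per genotype this cannot show whether they shared an animal, culture or batch, which the labels do not give. With the replicate block 2560 genes were called, with 0 members higher (1 at an unadjusted p below 0.05) and 5 lower. The replicate block with the correction gave 0 genes, 0 members higher and 0 lower by the edgeR QL test, beside 4276 genes, 1 member higher and 5 lower at an unadjusted p below 0.05. A crossed replicate block, added after the data were seen, gave 7670 genes, 2 members higher and 5 lower.

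Leaving out 1 sample gave 0 to 5832 genes, 0 to 1 members higher and 0 to 5 lower without the correction, and 0 to 1816 genes (534 without wild-type replicate 2), 0 members higher and 0 to 4 lower with it. Where no gene passed the edgeR QL test, 3637 to 5728 genes had an unadjusted p below 0.05. Sign changes were as follows, and the cause was not tested. With the correction the log2 fold changes were 0.30 for Dmd, 0.38 for Sgcb, 0.34 for Slit2, 0.13 for Clcn3 and 0.81 for Lrrc8c, and with the replicate block as well 0.22, 0.37, 0.43, 0.14 and 0.81. Leaving out 1 sample with the correction, the values of changed sign were 0.13, 0.48 and 0.81 for Dmd, 0.24, 0.32, 0.41 and 0.53 for Sgcb, 0.20, 0.46 and 0.96 for Slit2, 0.11, 0.16 and 0.34 for Clcn3, 0.75, 0.79, 0.80 and 0.84 for Lrrc8c, 0.011 to 0.18 for Aqp9, 0.23 for Kcnj2 and -0.027 for Clcn2. Without the correction, Dag1 stood at -0.049 without wild-type replicate 1 and at 0.59 without wild-type replicate 2. Depth limits Gjb6, Gjb2 and Aqp2, which had at most 24 counts in any library.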

Other observations

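Lrrc8a, the gene of the obligatory subunit of the volume-regulated anion channel and a member of the list associated with Hepacam and Mlc1, had 0 and 3537 counts in Npas3-/- replicates 1 and 2, against 4227 and 2853 counts in wild-type replicates 1 and 2. It was picked out after its values were seen. Gm28035, which overlaps it on the same strand, had 5997 and 1261 counts in the Npas3-/- replicates, against 179 and 2516 counts in the wild-type replicates. Together with 1700084E18Rik on the other strand it covers 68.3% of the exon bases of Lrrc8a. Lrrc8a and Zbtb9 were the 2 genes at 0 in Npas3-/- replicate 1 with at least 500 counts in each of the other libraries, and no gene was at 0 in that way in Npas3-/- replicate 2 or in either wild-type replicate. No direction is therefore read from Lrrc8a.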
